A study of Mus musculus with 6 samples.

Results

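The T cell receptor (TCR) alpha and beta V, D and J segments were described in RNA-seq counts of natural killer (NK) cells sorted from mouse thymus. All genes of the deposited table whose Entrez ID carries a mouse symbol starting with Trav, Traj, Trbv, Trbd or Trbj were taken, and the constant genes were left out. This gave 206 segments of 26332 genes in the table, made up of 116 Trav, 51 Traj, 24 Trbv, 2 Trbd and 13 Trbj segments. Another 35 segments of the same classes in the RefSeq gene table, Trbv29 among them, are not analysed here. RefSeq lists 4 of the 206 as V pseudogenes, among them Trbv11 and Trbv18.

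The groups compared were 2 libraries from Tcf7 knockout (KO) mice and 4 libraries from wild-type (WT) mice, each library from a separate mouse of the C57BL/6 strain. The product of Tcf7, TCF-1, is a DNA-binding regulator that T cell progenitors and innate lymphoid cells need to develop. The knockout is given as Tcf7 knock-out in the labels, without the deleted exons or whether other cells also lack the gene. Cells without TCRbeta, CD3, CD8 or CD1d tetramer staining that carried NK1.1 and NKp46 were sorted, so cells with an alpha-beta TCR on the surface were gated away. KO 1, WT 1 and WT 3 were labelled male, and KO 2, WT 2 and WT 4 female. The age of the mice is not given in the sources used here.

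In developing T cells the RAG recombinase joins a V segment, for the beta chain also a D segment, to a J segment, and the joined exon is spliced to a constant exon. The beta locus holds a D segment, a J cluster and a constant gene (Trbd1, Trbj1 and Trbc1), followed by a second such set (Trbd2, Trbj2 and Trbc2). The alpha locus holds many V segments, some present as near-identical copies in repeated blocks and marked d or n in the symbol, and a long row of J segments before Trac. Unrearranged segments can be transcribed as well, as germline transcripts. NK cells do not need a rearranged TCR for their development or function.

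The V segments that differed most between genotypes are shown with their close relatives by the last 60 bases of the germline segment, where the V segment meets its partner. The sequences are those of GENCODE M21 transcripts on GRCm38, the build called mm10, plus strand, read 5′ to 3′. Capitals mark the 13 bases that differ within the Trbv13 set and the 5 that differ within the Trav14 set.
Trbv13-1: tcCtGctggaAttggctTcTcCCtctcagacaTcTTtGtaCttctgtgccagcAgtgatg
Trbv13-2: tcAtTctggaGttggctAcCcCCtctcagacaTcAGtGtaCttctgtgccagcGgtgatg
Trbv13-3: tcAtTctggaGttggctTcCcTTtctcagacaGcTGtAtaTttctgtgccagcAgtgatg
Trav14d-3-dv8: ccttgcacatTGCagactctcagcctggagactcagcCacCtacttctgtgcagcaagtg
Trav14d-1: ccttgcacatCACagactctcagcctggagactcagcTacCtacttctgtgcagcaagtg
Trav14n-1: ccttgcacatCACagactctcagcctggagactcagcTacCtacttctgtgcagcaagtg
Trav14n-3: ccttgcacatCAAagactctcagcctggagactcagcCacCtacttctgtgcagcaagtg
Trav14-3: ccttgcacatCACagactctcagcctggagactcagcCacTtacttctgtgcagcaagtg
Over the last 280 bases, Trbv13-2 was 88.2% and Trbv13-3 85.4% identical to Trbv13-1. The other 8 Trav14 segments were 93.6% to 97.1% identical to Trav14d-3-dv8, with 8 to 18 differing bases. Reads of the Trav14 copies can therefore be split between copies or dropped, and the values of single Trav14 copies are uncertain.

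The J and D segments that the results turn on are shown whole, from the same transcripts. Capitals mark the letters TTNGGNNNNGGN, searched on the given strand only. They include every spelling of the phenylalanine-glycine-any-glycine motif of J segments. The pattern is looser than that motif, since the reading frame was not checked and TTN does not always spell phenylalanine.
Traj15: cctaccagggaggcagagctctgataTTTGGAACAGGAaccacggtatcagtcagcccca
Traj3: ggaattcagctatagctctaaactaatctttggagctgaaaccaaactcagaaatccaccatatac
Traj2: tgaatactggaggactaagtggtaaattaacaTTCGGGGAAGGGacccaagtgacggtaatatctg
Trbj2-5: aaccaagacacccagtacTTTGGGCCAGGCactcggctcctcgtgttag
Trbj2-7: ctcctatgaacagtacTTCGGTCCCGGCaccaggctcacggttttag
Trbj2-1: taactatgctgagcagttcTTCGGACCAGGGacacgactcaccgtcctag
Trbj1-1: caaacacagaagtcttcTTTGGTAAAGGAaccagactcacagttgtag
Trbd1: gggacagggggc
Trbd2: gggactgggggggc
These letters occurred in 55 of the 64 J segments (85.9%), 44 of 51 Traj and 11 of 13 Trbj, and were not found in Traj3. The J segments shown are single exons of 47 to 66 bases. Fragments that cover a J segment usually reach into a neighbouring segment, an intron or a constant exon, so levels per length were compared within a class only.

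Total counts per library were 16418910 and 26245132 in KO and ranged from 16666151 to 31155303 in WT. A level of 3 counts equals 0.0989 to 0.180 CPM (counts scaled to the library total by the TMM method), and differences at such levels were not detectable at this depth. Tcf7 itself was measured at 268 and 452 CPM in KO, against 943, 947, 811 and 880 CPM in WT, so it was lower in KO but not absent (log2 fold change -1.35, SE 0.17, adjusted p = 2.94e-03). The NK marker Ncr1, which encodes NKp46, averaged 861 ± 172 CPM in KO and 964 ± 99.2 CPM in WT (SD, n = 2 and n = 4). Fewer cells of a type and less RNA per cell cannot be told apart in such libraries, which applies to every level given here.

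Among the segments, the knockout libraries had higher levels of a few segments on both chains and no segment was called lower. A fit over all genes (edgeR quasi-likelihood, sex as an added term, Benjamini-Hochberg adjustment over 13652 genes, called at an adjusted p under 0.05) tested 53 of the 206 segments. Of these 53, 10 rose in KO, where 8.13% of all tested genes did, and 0 fell, where 5.58% of all tested genes did. At an unadjusted p under 0.05, 13 were higher and 1, Trbj1-1, was lower. DESeq2 called 10 higher and 1 lower, again Trbj1-1. The 10 that rose were 4 of 17 tested Trav, 3 of 3 Traj, 1 of 18 Trbv and 2 of 13 Trbj, and none of the 2 Trbd. The 4 Trav segments are all Trav14 copies of close sequence, so their calls may not be independent. A segment with low WT counts passed the count filter only through its KO counts, so the shares called in Trav, in Traj and in the 53 are descriptions. Without KO 2, 5 segments rose.

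The remaining 153 segments had too few counts to be tested, and 60 of the 206 had no count in any library, 45 Trav, 14 Traj and 1 Trbv. In the WT libraries 75 segments had no count, and in the KO libraries 124. KO levels lay above all WT levels in 23 of the 206 segments, a share near that of all genes in the table (11.5%). They lay below all WT levels in 4, where 10.1% of all genes did. A segment without counts in any one WT library could not lie below all WT levels. The low number of 4 is therefore limited by the sparse WT counts and is a description. The median log2 fold change of the 53 tested segments was 0.82, against 0.02 over all tested genes. Since segments with low WT counts were tested only through their KO counts, this median is raised by the filter and is a description. It was 0.82 as well with the 4 segments without WT counts set at their lower bound. That setting could not move the median, since these bounds lie above it.

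Summed over each class, both KO libraries lay above all WT libraries for Trbv, Trav and Traj segments and overlapped them for Trbd and Trbj segments. Trbv segments summed to 683 and 1585 CPM in KO, against 25.7, 31.1, 16.7 and 42.0 CPM in WT (log2 ratio 5.25). Trav segments summed to 206 and 331 CPM in KO, against 10.7, 16.3, 2.46 and 15.01 CPM in WT (log2 ratio 4.86). Traj segments summed to 12.7 and 22.0 CPM in KO, against 2.19, 1.98, 1.14 and 2.18 CPM in WT (log2 ratio 3.21). WT 3 was the lowest library in each of these 3 classes. The exact two-sided permutation test over samples gave p = 0.133 for each, the smallest value that the 15 arrangements of 2 against 4 libraries allow, so no such comparison can reach 0.05.

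**Figure D1:**
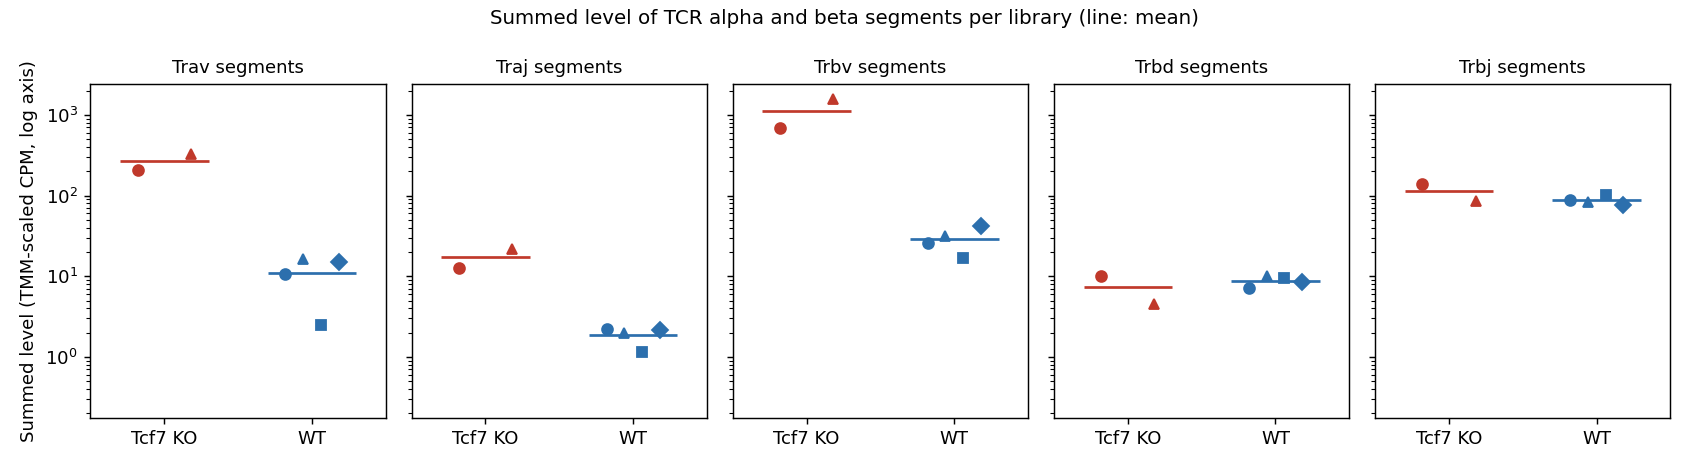
Summed level of each segment class per library in TMM-scaled CPM on a log axis, KO left of WT, with a line at the group mean. Trbv, Trav and Traj sums of the 2 KO libraries lie above all 4 WT libraries, while Trbd and Trbj sums overlap.

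Nearly all of the Trbv counts in KO came from Trbv13-1. Trbv13-1 (chr6:41116036-41116468, GRCm38) is a functional V segment of the Trbv13 subgroup, which also holds Trbv13-2 and Trbv13-3. It had 11051 and 41378 counts in KO, against 63, 72, 21 and 78 counts in WT. As levels these were 640 and 1535 CPM in KO, against 2.55, 2.37, 1.26 and 3.15 CPM in WT. Both KO libraries were far above the WT range, and KO 2 was the higher of them. Trbv13-1 rose (8.77 on the log2 scale, SE 0.27, adjusted p = 1.72e-05) and was called under all 14 alternative settings.

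Trbv13-1 made up 93.7% (95% Wilson interval 93.2 to 94.1) and 96.9% (96.7 to 97.0) of Trbv counts in KO, against 9.92%, 7.62%, 7.55% and 7.49% in WT. These intervals cover counting error only. The labels do not say whether the KO mice were littermates or carried a rearranged TCR gene, and counts per gene do not show whether a segment was joined, so what lies behind the shared leading segments of both KO libraries was not tested. The neighbours of closest sequence did not share this level. Trbv13-2 was at 3.82 and 7.72 CPM in KO, against 3.16, 3.10, 1.98 and 4.76 CPM in WT (log2 fold change 0.78, adjusted p = 0.203). Trbv13-3 was at 2.90 and 1.00 CPM in KO, against 1.21, 1.68, 0.60 and 2.30 CPM in WT, with the groups overlapping.

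The other 17 tested Trbv segments were not called, with a lowest adjusted p of 0.0550. Their log2 fold changes ran from -0.95 to 2.05, and 16 of 17 lay above 0. The sum of Trbv segments without Trbv13-1 was 43.0 and 49.4 CPM in KO, against 23.2, 28.8, 15.4 and 38.9 CPM in WT, so both KO libraries still lay above WT (log2 ratio 0.88, exact p = 0.133). Trbv2, a V segment at the upstream end of the locus, came nearest to a call. It was at 2.49 and 3.90 CPM in KO, against 0.89, 0.79, 0.36 and 1.05 CPM in WT (log2 fold change 2.02, adjusted p = 0.0550). Trbv15 was at 3.94 and 4.08 CPM in KO, against 1.34, 2.57, 0.12 and 1.78 CPM in WT (log2 fold change 1.67, adjusted p = 0.197). Trbv1, the first segment of the locus, and Trbv31, the last and lying beyond Trbc2, overlapped between groups. Trbv31 was at 0.93 and 1.30 CPM in KO, against 0.77, 1.25, 0.60 and 1.05 CPM in WT.

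**Figure D2:**
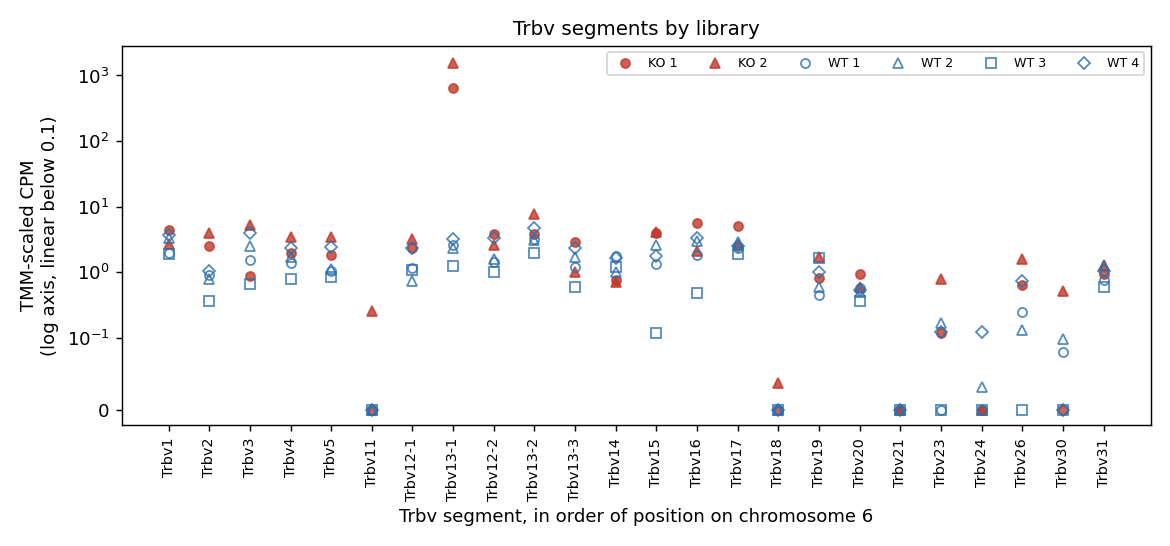
Level of each Trbv segment per library in TMM-scaled CPM, on a log axis that is linear below 0.1, in order of position on chromosome 6. KO libraries (filled red) lie at 640 and 1535 CPM at Trbv13-1, where WT libraries (open blue) lie at 1.26 to 3.15 CPM.

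In WT the Trbv counts were spread over most of the segments. The effective number of segments, the exponential of the Shannon entropy of counts within the class, was 1.49 and 1.25 in KO, against 15.9, 15.6, 14.4 and 16.1 in WT (exact p = 0.133). The count of Trbv segments with at least 1 read did not differ in this way, at 19 and 22 in KO, against 19, 21, 17 and 20 in WT. Thinned to the lowest Trbv total of 278 counts, the expected number was 10.8 and 7.46 in KO, against 18.7, 19.5, 17.0 and 19.2 in WT. So the KO libraries held reads of as many Trbv segments, with the counts concentrated on Trbv13-1.

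The leading Trbv segment of WT was Trbv13-2 in WT 1, WT 3 and WT 4 and Trbv1 in WT 2, at 10.5% to 12.3% of Trbv counts. On average over the WT libraries Trbv13-2 had 11.4%, Trbv1 9.51%, Trbv17 8.86%, Trbv13-1 8.15%, Trbv16 6.89% and Trbv3 6.85% of Trbv counts. Trbv11, Trbv18 and Trbv21 had no count in WT, and the first pair are listed as pseudogenes. Across the 24 segments, Spearman correlations of usage between WT libraries were 0.73 to 0.92 over 6 pairs, and between a KO and a WT library 0.63 to 0.89 over 8 pairs. Segments share library depth and mapping, so these values are descriptions. Per kilobase of segment, WT levels were highest for Trbv13-2, Trbv1, Trbv17, Trbv13-1 and Trbv3, and KO levels for Trbv13-1, Trbv13-2, Trbv15, Trbv16 and Trbv17.

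**Figure D3:**
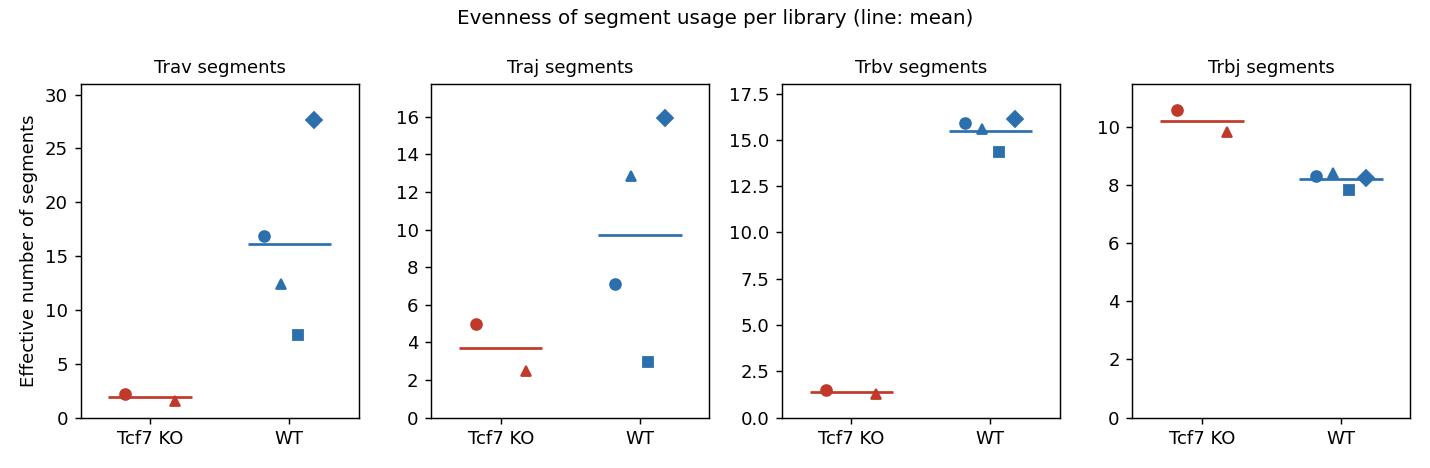
Effective number of segments used per library within each class, KO left of WT, with a line at the group mean. It is 1.25 to 2.21 in KO for Trbv and Trav, below all WT libraries, and 9.82 to 10.6 in KO for Trbj, above all WT libraries.

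On the alpha chain, Trav14d-3-dv8 took most of the KO counts. Trav14d-3-dv8 (chr14:53078547-53079045) belongs to the Trav14 subgroup, and the dv part of its name marks a V segment that can also be joined in delta chains. It had 2978 and 8253 counts in KO and no count in the 4 WT libraries. Its KO level was 239 ± 94.5 CPM (SD, n = 2), at least 1837-fold higher than a floor of 3 counts in each WT library (adjusted p = 1.35e-04). The call held under all 14 alternative settings. It was 83.9% (95% Wilson interval 82.7 to 85.1) and 92.5% (91.9 to 93.0) of Trav counts in KO.

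Further Trav14 copies were called higher as well, at far lower counts. Over the last 280 bases Trav14d-1 and Trav14n-1 are 96.1% and Trav14n-3 96.8% identical to Trav14d-3-dv8. Whether their counts are reads of Trav14d-3-dv8 was not tested. Trav14d-1 had 170 and 217 counts in KO and none in WT, at least 68.7-fold higher (adjusted p = 3.40e-03, 0.0570 by DESeq2). Trav14n-1 had 43 and 49 counts in KO and none in WT, at least 16.5-fold higher (adjusted p = 0.0254). This call was lost without KO 1, KO 2 or WT 1 (adjusted p = 0.123, 0.1001 and 0.0550) and by DESeq2 (0.155). Trav14n-3 had 21 and 103 counts in KO, against 0, 0, 0 and 9 in WT (log2 fold change 5.20, SE 1.32, adjusted p = 0.0402). That call held without WT 4 (adjusted p = 0.0202) but not without any of the other 5 libraries, with adjusted p of 0.0515 to 0.212, nor without the sex term (0.0610).

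Trav14d-2, with 16 and 20 counts in KO and none in WT, was not called (at least 6.40-fold higher, adjusted p = 0.0627). Trav14-1, Trav14-2 and Trav14-3 were present in some WT libraries and were not called either. Trav14-1 had 18 and 41 counts in KO, against 5, 0, 0 and 21 in WT, with the KO levels above the WT levels once scaled. All 9 Trav14 segments together were 92.5% and 98.1% of Trav counts in KO, against 4.92%, 2.02%, 14.6% and 11.3% in WT.

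Outside the Trav14 subgroup the Trav level overlapped between genotypes. The sum was 15.4 and 6.20 CPM in KO, against 10.2, 16.0, 2.10 and 13.3 CPM in WT (log2 ratio 0.25, exact p = 1.0). In WT the leading segment was Trav15-1-dv6-1 in WT 1 and WT 4, at 16.3% and 17.7% of Trav counts. It was Trav13-4-dv7 in WT 2 and WT 3, at 26.5% and 29.3%. Trav13-4-dv7 was at 1.51 and 0.59 CPM in KO, against 1.62, 4.32, 0.72 and 1.65 CPM in WT, and Trav15-1-dv6-1 at 2.38 and 1.08 CPM in KO, against 1.74, 2.90, 0.18 and 2.66 CPM in WT. Both overlapped between groups. Trav15-2-dv6-2 stood out in KO 1 alone, at 8.11 and 0.85 CPM in KO, against 1.30, 1.75, 0.06 and 0.77 CPM in WT. Per kilobase, Trav21-dv12, the last Trav segment along the locus, and Trav13-5 were also among the 5 highest of WT.

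Of the 116 Trav segments 10 carry dv in their name, and the 9 of them outside Trav14 held much of the remaining Trav signal in both genotypes. Their share of those counts was 86.1% and 62.9% in KO, against 57.8%, 70.1%, 48.6% and 44.2% in WT, with the groups overlapping (exact p = 0.267). The d- and n-marked copies held 6.02% and 11.4% in KO, against 10.4%, 5.77%, 5.71% and 11.8% in WT. The effective number of Trav segments was 2.21 and 1.56 in KO, against 16.9, 12.4, 7.70 and 27.7 in WT (exact p = 0.133). With the copies of each subgroup merged it was 1.39 and 1.13 in KO, against 7.02, 6.01, 4.29 and 9.84 in WT.

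Traj15 was the leading Traj segment in both KO libraries. Traj15 (chr14:54204422-54204481) had 124 and 436 counts in KO, against 2, 0, 0 and 0 in WT. Its level averaged 11.7 ± 6.36 CPM in KO and 0.020 ± 0.040 CPM in WT (SD, n = 2 and n = 4). The ratio of pooled counts was 611 (exact 95% interval 168 to 5059, counting error only), and the adjusted p was 9.15e-04. The call held under all 14 alternative settings, with adjusted p of at most 0.0304. Traj15 was 56.4% (95% Wilson interval 49.8 to 62.8) and 73.4% (69.7 to 76.8) of Traj counts in KO, against 3.70%, 0%, 0% and 0% in WT, where 19 to 60 Traj counts per library were available.

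Traj3 and Traj2, the last pair of Traj segments with a row, rose as well. Traj3 (chr14:54217292-54217357) had 19 and 91 counts in KO, against 1, 0, 0 and 0 in WT (pooled ratio 240, exact 95% interval 42.2 to 9569, adjusted p = 0.0108). The call was lost without KO 2 (adjusted p = 0.203) and without WT 4 and KO 2 together (0.121). Traj2 (chr14:54217836-54217901) had 23 and 42 counts in KO, against 2, 2, 0 and 5 in WT (log2 fold change 4.05, SE 1.03, adjusted p = 0.0403). It held without WT 4 (adjusted p = 0.0452) and was lost without any of the other 5 libraries, with adjusted p of 0.0790 to 0.260.

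Traj41 and Traj44 had no WT count and few KO counts, 17 and 5 for Traj41 and 6 and 7 for Traj44, and were not tested. Among WT libraries the Traj usage was uneven and shallow. Traj58 led in WT 1 with 17 of 54 counts, Traj59, the first segment with a row, in WT 2 and WT 4 with 8 counts each, and Traj35 in WT 3 with 11 of 19 counts. Traj59, Traj58, Traj35, Traj4 and Traj23, the 5 highest of WT per kilobase, had no count in KO. The effective number of Traj segments was 4.96 and 2.48 in KO, against 7.11, 12.8, 2.98 and 15.9 in WT, and the groups overlapped (exact p = 0.267). Without Traj15 the Traj sum was 5.56 and 5.86 CPM in KO, against 2.10, 1.98, 1.14 and 2.18 CPM in WT (exact p = 0.133).

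**Figure D4:**
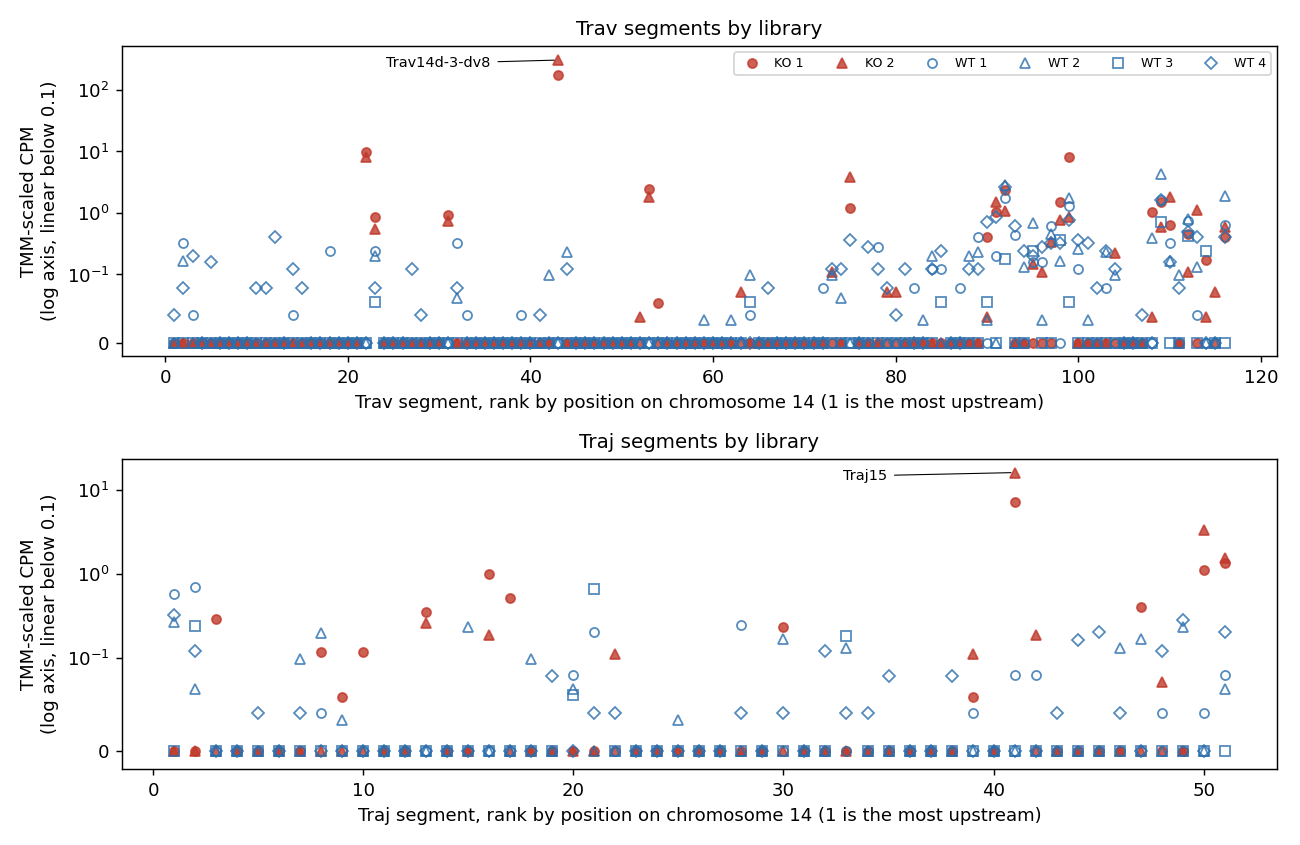
Level of each Trav (top) and Traj (bottom) segment per library in TMM-scaled CPM, on a log axis that is linear below 0.1, by rank along chromosome 14. The highest points are the KO libraries at Trav14d-3-dv8 and at Traj15.

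Segments of known invariant chains were at or near 0. Trav11 and Traj18, which form the alpha chain of invariant NKT cells, had no count in KO, while Trav11 had 2 counts in WT 1 and Traj18 2 counts in WT 4. Trav11d had no count in KO and 6 counts in WT 1. Trav1, the first Trav segment and with Traj33 the alpha chain of mucosal-associated invariant T cells, had no count in KO and 1 count in WT 4. Traj33 had no count in any library. All of these lay below the number of counts that the filter required. Trav16 had 18 and 1 counts in KO, against 0, 12, 0 and 0 in WT.

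The D and J segments of the beta locus were expressed in both genotypes and all 13 Trbj segments had counts in every library. The Trbj sum was 140 and 84.6 CPM in KO, against 88.5, 83.9, 102 and 75.5 CPM in WT (log2 ratio 0.32, exact p = 0.4). The Trbd sum was 10.2 and 4.56 CPM in KO, against 7.16, 9.98, 9.53 and 8.47 CPM in WT (log2 ratio -0.35, exact p = 0.667). In neither class were the KO libraries on the same side of WT. Trbd1 (chr6:41533201-41533212) was at 9.96 and 4.16 CPM in KO, against 6.64, 9.03, 9.29 and 7.75 CPM in WT (log2 fold change -0.29, adjusted p = 0.635). Trbd2 was at 0.23 and 0.41 CPM in KO, against 0.53, 0.96, 0.24 and 0.73 CPM in WT, the lower of the D segments in every library.

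Within the Trbj row, 2 segments of the second cluster rose in KO. Trbj2-5 (chr6:41543453-41543501) had 143 and 293 counts in KO, against 8, 27, 13 and 10 in WT. Its level was 8.28 and 10.9 CPM in KO, against 0.32, 0.89, 0.78 and 0.40 CPM in WT (log2 fold change 4.00, SE 0.47, adjusted p = 2.33e-03). Trbj2-7 (chr6:41543810-41543856), the last Trbj segment, was at 11.01 and 14.2 CPM in KO, against 3.04, 1.75, 2.16 and 3.47 CPM in WT (log2 fold change 2.27, SE 0.34, adjusted p = 6.10e-03). For both, each KO library was above every WT library. The Trbj2-5 call held under all 14 alternative settings, and that of Trbj2-7 was lost without KO 2 (adjusted p = 0.0610).

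Trbj2-1, the first segment of the second cluster, was not called. It was at 9.73 and 17.3 CPM in KO, against 9.43, 9.26, 10.9 and 9.32 CPM in WT (log2 fold change 0.45, adjusted p = 0.285), and was -0.07 without KO 2. Trbj1-1 (chr6:41533864-41533911), the first segment of the first cluster, lay below WT in both KO libraries, at 21.9 and 10.9 CPM in KO, against 26.3, 23.4, 31.2 and 23.1 CPM in WT. It narrowly missed the threshold (log2 fold change -0.73, SE 0.20, adjusted p = 0.0506) and passed it without KO 1 (log2 fold change -1.09, adjusted p = 0.0269). The KO libraries differed at Trbj1-2, with 21.7 and 4.86 CPM in KO, against 12.9, 12.4, 16.8 and 11.1 CPM in WT. At Trbj1-3 they were at 15.4 and 6.46 CPM in KO, against 9.79, 9.26, 7.91 and 7.10 CPM in WT, and at Trbj1-5 at 16.0 and 5.08 CPM in KO, against 8.46, 7.15, 12.7 and 5.45 CPM in WT. At these 3 segments KO 1 was above and KO 2 below the WT range.

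The second cluster held 25.8% (95% Wilson interval 24.1 to 27.6) and 55.3% (53.2 to 57.3) of Trbj counts in KO, against 17.9%, 16.7%, 15.5% and 20.2% in WT. Both KO libraries exceeded WT (exact p = 0.133), and the difference of 23.0 percentage points was 8.22 without KO 2. Trbj1-1 led every WT library with 27.9% to 30.6% of Trbj counts, whereas Trbj1-1 led in KO 1 with 15.6% and Trbj2-1 in KO 2 with 20.4%. The effective number of Trbj segments was 10.6 and 9.82 in KO, against 8.32, 8.39, 7.82 and 8.25 in WT (exact p = 0.133), so Trbj counts were more evenly spread in KO while Trbv and Trav counts were less so. Spearman correlations of Trbj usage were 0.95 to 0.98 between WT libraries and 0.47 to 0.90 between a KO and a WT library, as a description over 13 segments.

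**Figure D5:**
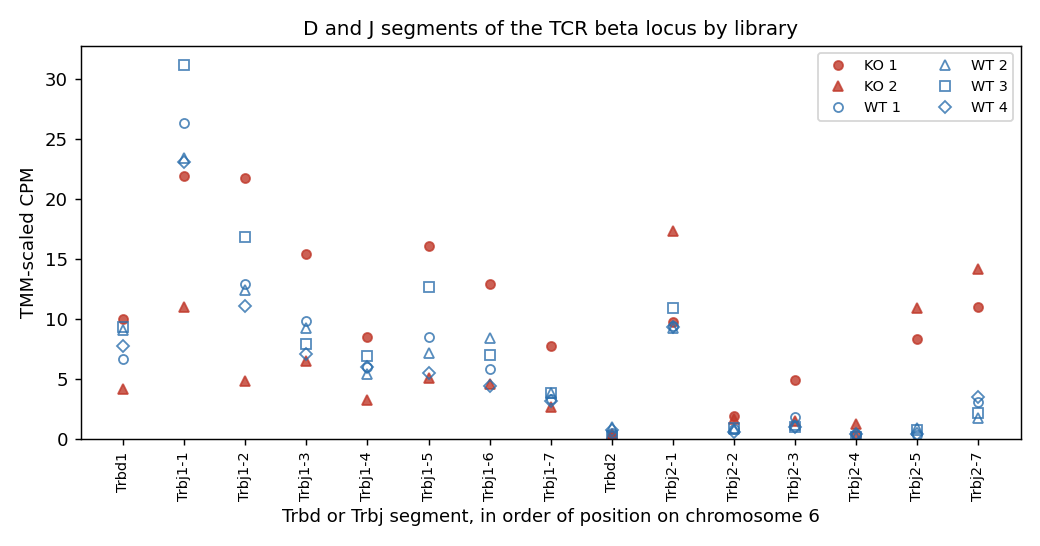
Level of each Trbd and Trbj segment per library in TMM-scaled CPM on a linear axis, in order of position on chromosome 6. KO libraries (filled red) lie above WT (open blue) at Trbj2-5 and Trbj2-7 and below WT at Trbj1-1.

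Of the constant genes, Trac and Trbc2 rose and Trbc1 was not called. Trac was at 405 and 636 CPM in KO, against 28.3, 37.4, 16.8 and 39.1 CPM in WT (log2 fold change 4.11, SE 0.18, adjusted p = 9.41e-05). Trbc2, the partner of the second J cluster, rose (2.99 on the log2 scale, SE 0.17, adjusted p = 1.61e-04) while Trbc1, the partner of the first, had a value of -0.25 (SE 0.17, adjusted p = 0.357). Trbc2 made up 83.0% and 93.1% of Trbc1 and Trbc2 counts in KO, against 44.9%, 49.8%, 41.2% and 49.6% in WT.

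Relative to the constant genes the classes separated. Trbv counts per Trbc count were 1.20 and 1.57 in KO, against 0.165, 0.181, 0.0827 and 0.206 in WT. Trbj counts per Trbc count were 0.247 and 0.0837 in KO, against 0.567, 0.487, 0.506 and 0.371 in WT. So WT libraries held more Trbj than Trbv counts and KO libraries the reverse, with 4.87 and 18.7 Trbv counts per Trbj count in KO, against 0.290, 0.371, 0.163 and 0.556 in WT. Trav counts per Trac count were 0.508 and 0.521 in KO, against 0.377, 0.436, 0.146 and 0.384 in WT. Traj counts per Trac count were 0.0315 and 0.0347 in KO, against 0.0771, 0.0528, 0.0679 and 0.0557 in WT. Whether a fragment that spans a V, a J and a constant exon was counted for any of them is not given in the sources used here, and its part in these ratios was not tested.

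Along the loci, the centre of Trav counts lay further upstream in KO. The count-weighted mean position was 691 and 666 kb from Trav1 in KO, against 1123, 1225, 1250 and 1093 kb in WT, and Trav14d-3-dv8 itself holds most of the KO counts. For Traj it was 45.0 and 50.5 kb from Traj59 in KO, against 17.0, 30.3, 23.9 and 38.0 kb in WT, further toward Trac. Traj15, at 48.3 kb, itself holds most of the KO Traj counts, and the WT means rest on 19 to 60 counts per library. For Trbj the mean position was 2.96 and 5.50 kb from Trbj1-1 in KO, against 2.08, 2.01, 1.87 and 2.26 kb in WT, further toward Trbc2. The difference of 2.18 kb was 0.91 kb without KO 2. In these 3 classes the groups did not overlap (exact p = 0.133 each). For Trbv the means were 224 and 225 kb from Trbv1 in KO, against 224, 223, 223 and 215 kb in WT, a difference whose sign turned when ranks replaced distances.

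In WT, Trbj levels declined along the row. The Spearman correlation of level with rank over the 13 segments was -0.65 and -0.13 in KO, against -0.88, -0.83, -0.85 and -0.82 in WT. Over the 24 Trbv segments it was -0.46 and -0.63 in KO, against -0.52, -0.47, -0.47 and -0.59 in WT. Over the 116 Trav segments it was 0.26 and 0.41 in KO, against 0.31, 0.49, 0.31 and 0.40 in WT. These are descriptions over neighbouring segments of the same libraries.

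Lists of genes known to act on the segments were read against all tested genes, of which 8.13% rose, 5.58% fell and the median log2 fold change was 0.02. Of 15 recombination genes 2 rose and 0 fell, with a median of 0.17. The 2 were Xrcc6, which encodes the Ku70 end-binding protein (0.96, adjusted p = 0.0246), and Dclre1c, which encodes the hairpin-opening nuclease Artemis (0.81, adjusted p = 0.0185). Rag1, a subunit of the recombinase, was at 20.2 and 322 CPM in KO, against 4.25, 11.2, 10.4 and 62.3 CPM in WT, and narrowly missed the threshold (log2 fold change 2.44, adjusted p = 0.0514). Its partner Rag2 (adjusted p = 0.221) and Dntt, the terminal transferase that adds bases at junctions (adjusted p = 0.348), were not called. For Rag1, Rag2 and Dntt, KO 2 was the highest library and WT 4 the highest of WT.

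Of 13 genes of the receptor complex and its signalling 4 rose and 0 fell, where 8.13% of all tested genes rose, with a median of 0.37. They were Trac, Trbc2, Ptcra, which encodes the pre-TCR alpha chain (log2 fold change 3.67, adjusted p = 0.0188), and the adaptor Lat (0.55, adjusted p = 0.0214). Ptcra was at 2.38 and 33.6 CPM in KO, against 0.73, 0.76, 0.96 and 1.33 CPM in WT. Of 10 transcription and chromatin factors of the TCR loci 1 rose, Bcl11b (1.59, adjusted p = 1.14e-03), and 2 fell, Satb1 (-0.97, adjusted p = 1.49e-03) and Ikzf1 (-0.55, adjusted p = 6.62e-03), with a median of -0.13.

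Markers of other lymphocytes were higher in KO in several lists, and their counts of called genes stand against 8.13% risen and 5.58% fallen among all tested genes. Alpha-beta T cell markers summed to 1734 and 2173 CPM in KO, against 473 to 762 CPM in WT, and 5 of 13 rose and 1 fell. This list includes the constant genes Trac, Trbc1 and Trbc2, and Trac and Trbc2 hold much of its KO sum. The marker that fell was Cd28, at 112 and 45.9 CPM in KO, against 211, 211, 147.5 and 242 CPM in WT. Its log2 fold change was -1.42 (adjusted p = 0.041). Double-positive thymocyte markers summed to 236 and 819 CPM in KO, against 18.5, 33.3, 41.1 and 193 CPM in WT, and 6 of 10 rose. Of the defining markers, Cd4 was at 17.7 and 71.5 CPM in KO, against 0.16, 2.97, 0.72 and 15.6 CPM in WT, and Cd8a at 79.5 and 64.3 CPM in KO, against 2.63, 1.78, 2.94 and 20.1 CPM in WT. Both rose (adjusted p = 0.0144 and 0.0249), and WT 4 was the highest WT library for each. Cd3e was at 131 and 82.2 CPM in KO, against 45.9, 74.9, 18.05 and 40.6 CPM in WT, and was not called.

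Gamma-delta T cell markers summed to 629 and 472 CPM in KO, against 187 to 352 CPM in WT (4 of 6 rose). B cell markers summed to 555 and 416 CPM in KO, against 375 to 424 CPM in WT (6 of 7 rose), and the NKT list to 75.2 and 114 CPM in KO, against 15.9 to 52.9 CPM in WT (1 of 4 tested rose). Myeloid markers summed to 406 and 395 CPM in KO, against 325 to 403 CPM in WT (1 of 7 rose). Ighm held most of the B cell sum, at 356 and 364 CPM in KO, against 359 to 406 CPM in WT. Itgam held most of the myeloid sum, at 347 and 280 CPM in KO, against 319 to 368 CPM in WT. Neither was called, so these sums say little of the other markers. The median log2 fold change was 4.94 over the B cell list and 3.22 over the myeloid list. NK markers summed to 9470 and 7267 CPM in KO, against 8862 to 9669 CPM in WT (0 of 7 rose and 2 fell). The NK markers that fell were Eomes (log2 fold change -2.11, adjusted p = 1.59e-03) and Klrb1c (-0.48, adjusted p = 0.0149). Gzma held the largest part of the NK sum, at 4266 and 3192 CPM in KO, against 2480, 2342, 2506 and 3411 CPM in WT. Gzma was not called. No listed marker was at 0 in all WT libraries, and the lists share some genes. The part of other cells in the segment levels was not tested. The fit with WT 4 and KO 2 left out, a choice made after seeing the data, leaves KO 1 as the only knockout library and cannot address that part. KO 1 held 236 CPM of double-positive thymocyte markers, against 18.5 to 41.1 CPM in WT 1, WT 2 and WT 3, and had more Cd8a than KO 2.

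The genotype effect on segments was compared between the sexes, with 1 KO library of each sex, so that sex and mouse cannot be told apart. The interaction was called in 0 of 13652 genes (edgeR, lowest adjusted p = 0.344, 1368 genes at an unadjusted p under 0.05). Of the 53 tested segments, 8 had an unadjusted p under 0.05 in this edgeR fit, and the lowest was that of Trbj1-2 (adjusted p = 0.344).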

How the data were processed

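Per the labels' protocols, the authors made libraries from sorted cells with the SMART-Seq v4 kit, which amplifies full-length cDNA without marking strand, and sequenced them paired-end with a NextSeq instrument. The files deposited by the authors hold raw counts per Entrez gene in a table of 26332 IDs, and 6 single-sample files held identical counts. Gene length, the other column the authors deposited, was used only for levels per kilobase and per base. Per the submitters' processing notes, featureCounts and mm10 were used. No source used here names the aligner, the versions or the handling of fragments over several genes. Reads of overlapping and antisense transcripts cannot be told apart without strand, and without molecular identifiers counts are not independent molecules.

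Symbols and positions came from RefSeq GRCm38.p6, which matched 25275 IDs. The 1057 others held 0.623% of counts, stayed in the tests, and none of the 18 of them named by GENCODE was a segment. Segment sequences came from GENCODE M21, which held 204 of the 206 segments. Columns of other samples numbered 0. The members and gene lists were chosen with earlier results of these data known.

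Counts were fitted with edgeR 4.0.16 (R 4.3.3) by quasi-likelihood, with TMM scaling, filterByExpr by genotype and sex as an added term. Fold changes are KO over WT. Each SE of a fold change was worked back from that fold change and its edgeR p-value, so it holds no information beyond them. The fit had 3 residual and 4.50 prior degrees of freedom, and a common coefficient of variation of 0.239. Of 13652 genes 1110 were called higher and 762 lower (13.7% in all). With library-size scaling 1336 were higher and 523 lower. All genes shared this fit and adjustment, and the script was tested on simulated counts. Single values per library were compared by exact two-sided permutation tests, and shares of single libraries have 95% Wilson intervals. Replicates were not merged, since they differed beyond sampling noise, with a chi-square of 53.7 per degree of freedom between the KO libraries and of 8.86 to 62.2 between WT libraries.

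Named segments were the called ones, the 5 highest per length in each class and genotype, the first and last of each class, and a list with known roles. Trbv2, Trbv15, the further Trav14 copies, Rag1 and the marker genes given singly, where outside that rule, were named after their values were seen. The alternatives were RLE and library-size scaling, no filter, a filter of 5 CPM in 2 libraries, DESeq2 1.42.0, a fit without sex, a replicate block, each library left out, counts per base, ranks for distances, merged copies, ratios to constant genes and thinning. Leaving out WT 4 and KO 2 together, and sums without the leading segment, were chosen after seeing the data.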

Additional observations from a re-analysis of the deposited data

Results flagged for a closer look

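Over 63 groups of 4 WT values, 4 had a library far from the other 3 of its group. The cut used flags about 1 in 20 groups of normally distributed values. Trav14n-3 was at 0.363 CPM in WT 4 and at 0 in the other WT libraries, Traj15 at 0.0809 CPM and Traj3 at 0.0405 CPM in WT 1 and at 0 in the others. These 3 values rest on 9, 2 and 1 counts. A lone value above 0 always passes the cut, so the rate of 1 in 20 does not apply to such groups. Trbj2-1 was at 10.9 CPM in WT 3, against 9.26 to 9.43 CPM in the other WT libraries.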

How the results depend on the processing

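The calls of Trbv13-1, Trav14d-3-dv8, Traj15 and Trbj2-5 held in all 14 alternatives. The 10 segments called higher were 6 with the filter of 5 CPM in 2 libraries and 5 to 10 with a library left out. None was called lower, but 1 was without a filter and 1 by DESeq2 (Trbj1-1 in both), and 0 to 2 with a library left out (Trbj1-1 and Trbj1-2 without KO 1). Trav segments called higher, 4, were 2 with the 5 CPM filter and 2 to 4 with a library left out. Traj segments, 3, were 1 with the 5 CPM filter, with the replicate block, and with WT 4 and KO 2 left out, and 1 to 3 with a library left out. Trbv segments, 1, were 2 with library-size scaling, no filter, no sex term or DESeq2 (Trbv2 each time) and 3 with WT 4 and KO 2 left out. Trbj segments, 2, were 1 to 2 with a library left out.

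Over all genes, calls higher ran from 550 to 1159 and lower from 337 to 749 with a library left out, and lower calls were 486 with the replicate block, 1361 by DESeq2 and 1257 with WT 4 and KO 2 left out. The replicate numbers of KO and WT were not treated as pairs in the main fit. Correlations of deviations were 0.128 and 0.000464 for the 2 shared numbers. The deviations of the 2 KO libraries mirror each other, so these values cannot show whether samples were paired. With the number as a block 7 segments were higher and 0 lower. The replicate block ended the calls of Trav14n-1, Traj3 and Traj2 (adjusted p = 0.0563, 0.0728 and 0.143).

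Of 223 alternative values of 30 usage measures, 211 kept their direction and 12 turned. Relative to constant genes, the summed CPM of Traj had a log2 ratio of -0.92 and that of Trbj -1.73. With a library left out, that of Trbj ran from -0.041 (without KO 1) to 0.69 and that of Trbd from -0.93 to 0.23 (without KO 2). The difference in detected Trbv segments was -9.45 after thinning, and with a library left out -0.25 (without KO 2) to 2.75. In detected Traj segments it was -5.0 to 0.667 (without WT 4), and 0.0 without KO 2. The mean Trbv position was -1.49 in ranks. The difference in the d- and n-marked share was -2.40 (without KO 2) to 2.96 percentage points, and -0.60 and -0.62 without WT 2 and WT 3. The log2 fold change of Trbj2-1 was -0.067 (without KO 2) to 0.89, and -0.065 without WT 4 and KO 2. That of Trbd1 was -1.02 to 0.32 (without KO 2), and 0.33 without WT 4 and KO 2. The causes were not tested. With 1 KO library left out, the other was assumed to vary like WT.

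With 41 Trav and 19 Traj counts in WT 3, single alpha segments of WT are near the limit of detection.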
